A study of Mus musculus with 6 samples.

Results

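The complement system in the late embryonic mouse cortex was described through 32 genes: 17 components of the cascade, 7 receptors and 8 regulators. They were found by matching their symbols to the Ensembl identifiers of the deposited table through GENCODE release M21, and all 32 were among its 55401 gene rows. The table comes from bulk RNA sequencing of the cerebral cortex of C57BL/6 mouse embryos at embryonic day 18. There were 3 libraries from wild-type embryos (WT) and 3 from embryos labelled Csmd3 knockout (Csmd3-/-), all from matings between Csmd3 heterozygous mice. The part of Csmd3 that was removed, and whether a library held 1 embryo or several, are unstated in the sources used here. The design compares the knockout with the wild type, and it has no other treatment or time.

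Complement is a cascade of secreted proteins that marks surfaces for removal. The classical pathway starts when C1q binds a target, the lectin pathway when collectins or ficolins do, and the alternative pathway amplifies what has begun; all of them cleave C3, and the late components can then form a pore. Receptors on macrophages and other cells read the fragments, and membrane-bound and soluble regulators hold the cascade back. In the brain, microglia are the main source of C1q, and C1q and C3 are known to tag synapses that microglia then remove. Csmd3 belongs to a family of large membrane proteins with CUB and Sushi domains, which are also the building blocks of many complement proteases and regulators.

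The 3 genes for the chains of C1q lie side by side on chromosome 4, on the minus strand. C1qb (136880129 to 136886187, mm10), C1qc (136889804 to 136893065) and C1qa (136895917 to 136898803) are separated by 3616 and 2851 bases. The 250 bases before the RefSeq starts of C1qb and C1qc, neighbouring genes that were both higher in the knockout, are shown. They are given 5′ to 3′ on the minus strand, from RefSeq on GRCm38.p6, at chr4:136886201-136886450 for C1qb and chr4:136892915-136893164 for C1qc. Capitals mark the letters GAGGAAGT, a site of the ETS family to which the macrophage factor PU.1 belongs, here read on the other strand.
C1qb: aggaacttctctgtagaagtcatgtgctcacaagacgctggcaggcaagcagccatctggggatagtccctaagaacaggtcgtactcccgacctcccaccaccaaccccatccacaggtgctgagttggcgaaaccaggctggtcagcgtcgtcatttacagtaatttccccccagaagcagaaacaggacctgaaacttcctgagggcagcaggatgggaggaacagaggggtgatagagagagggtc
C1qc: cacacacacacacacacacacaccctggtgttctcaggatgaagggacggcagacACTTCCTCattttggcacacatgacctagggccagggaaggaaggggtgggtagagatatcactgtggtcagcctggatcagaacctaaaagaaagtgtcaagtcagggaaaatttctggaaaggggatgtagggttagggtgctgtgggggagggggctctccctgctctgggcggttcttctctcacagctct
The RefSeq start of C1qc lies inside the gene as GENCODE gives it, so 151 of the 250 bases shown fall within the coordinates above, and 0 of those for C1qb. The match in C1qc begins 195 bases before the RefSeq start and 44 before the GENCODE start. C1qb held no exact match, but it holds acttcctg, which differs from the marked letters only in the last. Only GAGGAAGT was searched, so other forms of ETS sites were not counted. Both strands were searched, and overlapping matches were allowed. RefSeq windows were found for 22 of the 32 genes (24 windows), and GAGGAAGT occurred in 1 of these 24, against 2.44% of 32851 windows of that length over all genes. C1qa, which was also higher in the knockout, had no window, so it is not shown and was not searched.

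Deposited totals ran from 54244288 to 68269607 counts a library, and about 4 deposited counts appear to stand for 1 sequenced fragment. Csmd3 had 992, 765 and 867 counts in wild-type libraries 1 to 3 and 675, 653 and 543 in knockout libraries 1 to 3. The targeted gene was thus lower in every knockout library but still detected (log2 fold change -0.59, SE 0.13, adjusted p = 0.0233). Leaving out wild-type library 1, or any of the knockout libraries, ended that call (adjusted p up to 0.101), as did the replicate number as a block. Genes that mark cortical neurons summed to 6164 to 6780 CPM (counts scaled to library size) in wild type and 5879 to 6391 in knockout, so markers of the labelled tissue were present in all libraries. Knockout library 3 stood apart by the choroid plexus gene Ttr, with 25057 counts against 131 and 2262 in knockout libraries 1 and 2 and 4, 0 and 0 in wild type. Xist, transcribed from the inactive X chromosome, and the Y-linked gene Ddx3y were both detected in 5 of the 6 libraries, and neither followed genotype.

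Among the complement genes, the C1q chains, the scavenger collectin gene Colec12, the C5a receptor gene C5ar1 and the regulator genes Serping1 and Srpx2 rose in the knockout, and none fell. Of the 32, 25 had enough counts to be tested, and 7 of these rose, against 5.21% of all 19844 tested genes. Of all genes 2.53% fell, which makes 7.74% called in either direction. DESeq2 and limma-voom also called 0 of the complement genes lower at an adjusted p under 0.05. At an unadjusted p under 0.05 edgeR had 11 of the 25 higher, C5ar1 and Srpx2 among them, and 0 lower. The share of all tested genes at that unadjusted threshold was not computed, so these counts have no background to be set against. Of the 7, C5ar1 and Srpx2 reached the count filter through the knockout libraries alone, so the 25 tested genes are not a neutral sample of the 32. By role, 4 of 13 tested components (the scavenger collectin gene Colec12 among them), 1 of 5 receptors and 2 of 7 regulators rose. The 25 tested genes had a median log2 fold change of 0.36, also with Srpx2 set at its lower bound, against 0.00199 over all tested genes. In 11 of the 25 every knockout library lay above every wild-type library, which held for 15.6% of all tested genes, and in 0 of the 25 every knockout library lay below, which held for 13.5%. The number that rose was 4 without knockout library 1, 3 without knockout library 3 and 1 (Colec12) without knockout libraries 2 and 3 together. In bulk tissue, more cells of a type and more RNA per cell cannot be told apart, nor can fewer cells and less RNA per cell.

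**Figure D1:**
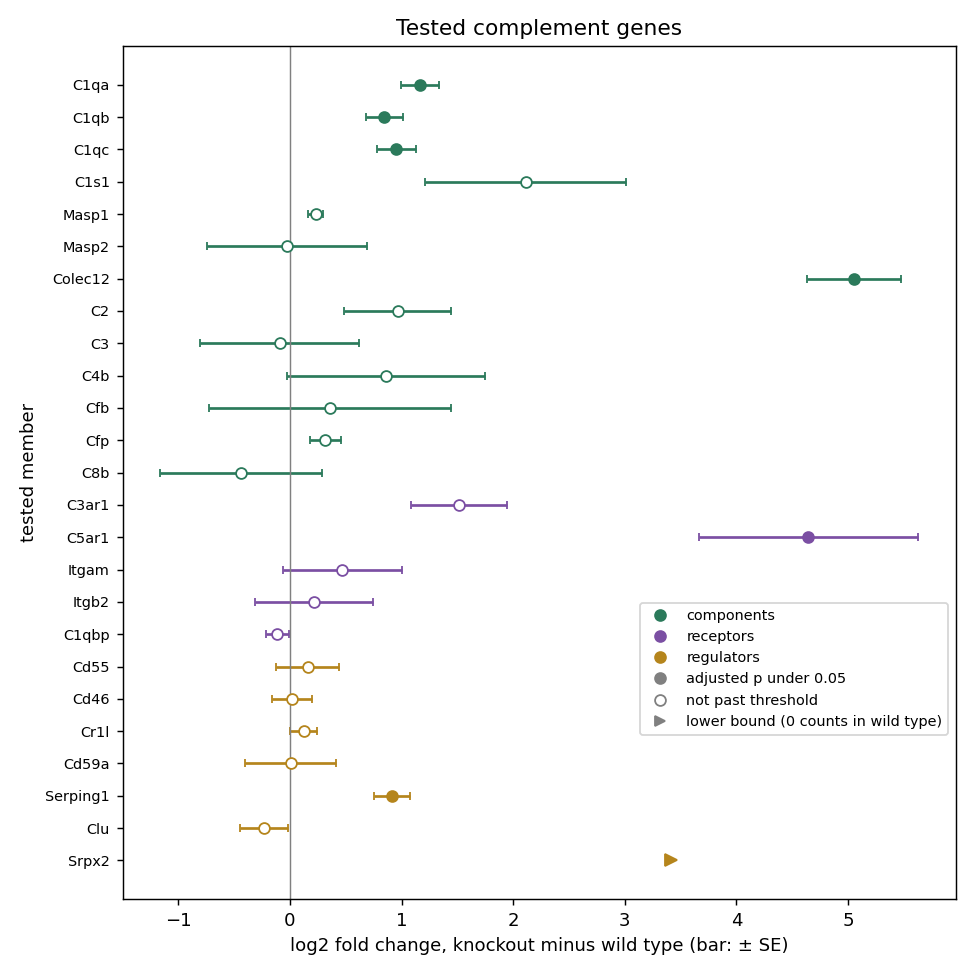
Log2 fold change of knockout minus wild type (horizontal axis) for the 25 tested complement genes (vertical axis), coloured by role; bars are ± SE, filled symbols have an adjusted p under 0.05, and the triangle is the lower bound for Srpx2. Colec12 (5.05) and C5ar1 (4.64, a fitted value that rests on 7 counts in wild type) stand far from the C1q chains and Serping1, which lie between 0.85 and 1.17.

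Per kilobase of exon, the complement genes spanned a wide range of levels. C1qbp, a mitochondrial protein that can also bind the heads of C1q, was the most abundant of the 32, at 28.5 CPM per kb in wild type and 26.3 in knockout. Next in wild type were the lectin-pathway protease gene Masp1 at 11.5 CPM per kb, the chaperone and terminal-pathway inhibitor gene Clu at 10.05 and the properdin gene Cfp at 8.52. The C1q chains stood at 3.75 (C1qa), 5.01 (C1qb) and 2.58 (C1qc) CPM per kb in wild type and at 8.43, 9.01 and 4.99 in knockout. C3, on which all pathways converge, was at 0.0662 CPM per kb in wild type and 0.0622 in knockout. Of the membrane regulators, Cr1l was highest at 2.42 CPM per kb in wild type. The cascade was thus represented unevenly, with the C1q chains far above C3 and the late components in both groups.

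**Figure D2:**
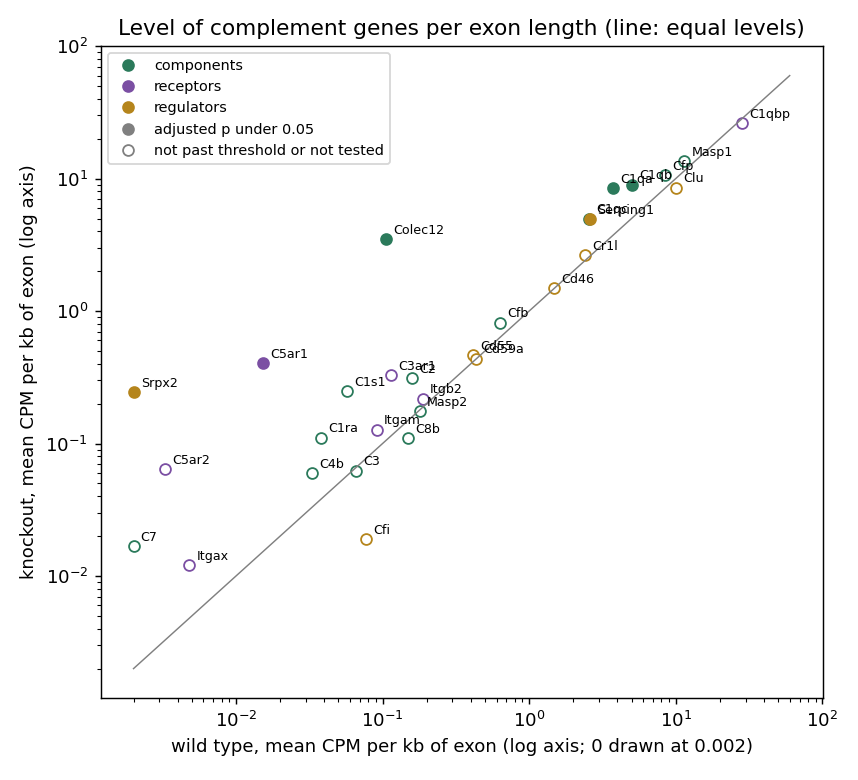
Mean level in CPM per kb of exon in wild type (horizontal, log axis) and knockout (vertical, log axis) for the 30 complement genes with any count, coloured by role; the line marks equal levels, filled symbols have an adjusted p under 0.05, and a level of 0 is drawn at 0.002. C1qbp (28.5 and 26.3) and Masp1 (11.5 and 13.5) lie near the line at the top, and Colec12 (0.105 and 3.5) lies far above it.

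All 3 chains of C1q, the molecule that opens the classical pathway, rose, with log2 fold changes of 0.85 to 1.17. C1qa was at 3.72, 4.58 and 3.40 CPM in wild-type libraries 1 to 3 and at 8.25, 8.33 and 9.72 CPM in knockout libraries 1 to 3. The groups did not overlap, and knockout library 3 was the highest (log2 fold change 1.17, SE 0.17, adjusted p = 0.00375). C1qb was at 5.01, 6.12 and 5.24 CPM in the wild-type libraries and at 11.3, 8.12 and 9.98 CPM in knockout. Knockout library 1 was the highest and library 2 the lowest of the knockout values, and none fell into the wild-type range (0.85, SE 0.17, adjusted p = 0.0162). C1qc was at 4.56, 5.82 and 4.56 CPM in the wild-type libraries and at 10.8, 8.09 and 9.99 CPM in knockout. It had the same order of libraries as C1qb (0.95, SE 0.17, adjusted p = 0.0114). Together the chains came to 14.3 ± 1.90 CPM in wild type against 28.2 ± 3.20 CPM in knockout (SD, n = 3). The call of C1qa held with any single library left out, whereas leaving out wild-type library 1, knockout library 1 or knockout library 3 ended those of C1qb and C1qc (adjusted p up to 0.0713 and 0.0542).

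The proteases that C1q activates had few counts. C1s1, the protease that cleaves C4 and C2, had 0, 19 and 12 deposited counts in wild type and 61, 38 and 47 in knockout. Every knockout library was higher, but the difference did not pass (log2 fold change 2.11, SE 0.90, adjusted p = 0.208). C1ra, the protease that activates C1s, had 8, 8 and 4 counts against 29, 27 and 8 and was not tested. Their near-identical copies C1s2 (39, 19 and 21 counts against 30, 38 and 8) and C1rb (0 in every library) could share reads with them, and C1s1 also overlaps an antisense gene, so both values are uncertain.

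Colec12, grouped here with the genes of the lectin pathway, showed the largest rise among those of the 32 genes that had counts in every library. Its product is a membrane-bound collectin and scavenger receptor, known from vascular and stromal cells. The wild-type libraries held 79, 23 and 59 counts of Colec12 and the knockout libraries 2363, 1560 and 1812. Scaled, these came to 0.917 ± 0.474 CPM for wild type and 30.6 ± 5.20 CPM for knockout (SD, n = 3). Knockout library 1 was the highest and library 2 the lowest, and the lowest knockout value lay far above the highest wild-type one (log2 fold change 5.05, SE 0.42, adjusted p = 0.00157). With single libraries left out the log2 fold change lay between 4.70 and 5.41 and the call held. Masp1, a protease of the lectin pathway with a splice form that also acts in development, was at 114, 109.8 and 115 CPM in wild type against 137, 135 and 125 CPM in knockout. The groups of Masp1 did not overlap, but the difference was small and did not pass (0.23, SE 0.07, adjusted p = 0.0696). Masp2, the protease that cleaves C4 in this pathway, had 34, 61 and 9 counts against 70, 17 and 25, which overlap (-0.03, SE 0.72). Masp2 shares exon sequence with Tardbp on the opposite strand, which had 8889 to 11939 counts a library, and its counts are uncertain for that reason.

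The opsonins and convertase components were mostly near the limit of detection and none passed. C3 had 33, 10 and 17 counts in wild type and 12, 36 and 12 in the knockout libraries (log2 fold change -0.09, SE 0.71, adjusted p = 0.961). These are about 3 to 9 fragments a library, which leaves the estimate imprecise. C2 had 42, 47 and 19 counts against 43, 81 and 95 (0.97, SE 0.48, adjusted p = 0.28). C4b, which C1s cleaves, had 16, 7 and 10 against 52, 12 and 4 (0.86, SE 0.89, adjusted p = 0.643), with knockout library 1 alone above wild type. The near-identical gene C4a took more of the counts, 164, 163 and 148 against 229, 146 and 124, and how reads were divided between the pair is unknown. Cfb, the factor B gene of the alternative pathway, had 164, 150 and 3 counts against 132, 165 and 133. Wild-type library 3 stood apart there, and Gm20547, which shares exons with Cfb and C2 on the same strand, had 125 counts in that library and 0 and 1 in the other wild-type libraries. Summed, Cfb and Gm20547 gave 164, 151 and 128 counts in wild type and 183, 165 and 137 in knockout.

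Cfp, which encodes properdin, the stabiliser of the alternative convertase, was the most abundant of this group. It was at 15.6, 16.6 and 12.1 CPM in the wild-type libraries and at 19.4, 16.9 and 18.9 CPM in knockout. The knockout values lay just above the wild-type ones, and the difference did not pass (log2 fold change 0.32, SE 0.14, adjusted p = 0.223). Cfd, the factor D protease gene, had 0 counts in all 6 libraries. The late components were hardly detected: C6 had 0 counts in every library, C7 had 0 in wild type and 0, 4 and 4 in knockout, and C8b had 6, 27 and 33 against 17, 25 and 11 (-0.43, SE 0.73, adjusted p = 0.79). C6 and C7 lie on chromosome 15, as Csmd3 does (47580637 to 48792063), but at 4727175 to 5063740, far from it.

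**Figure D3:**
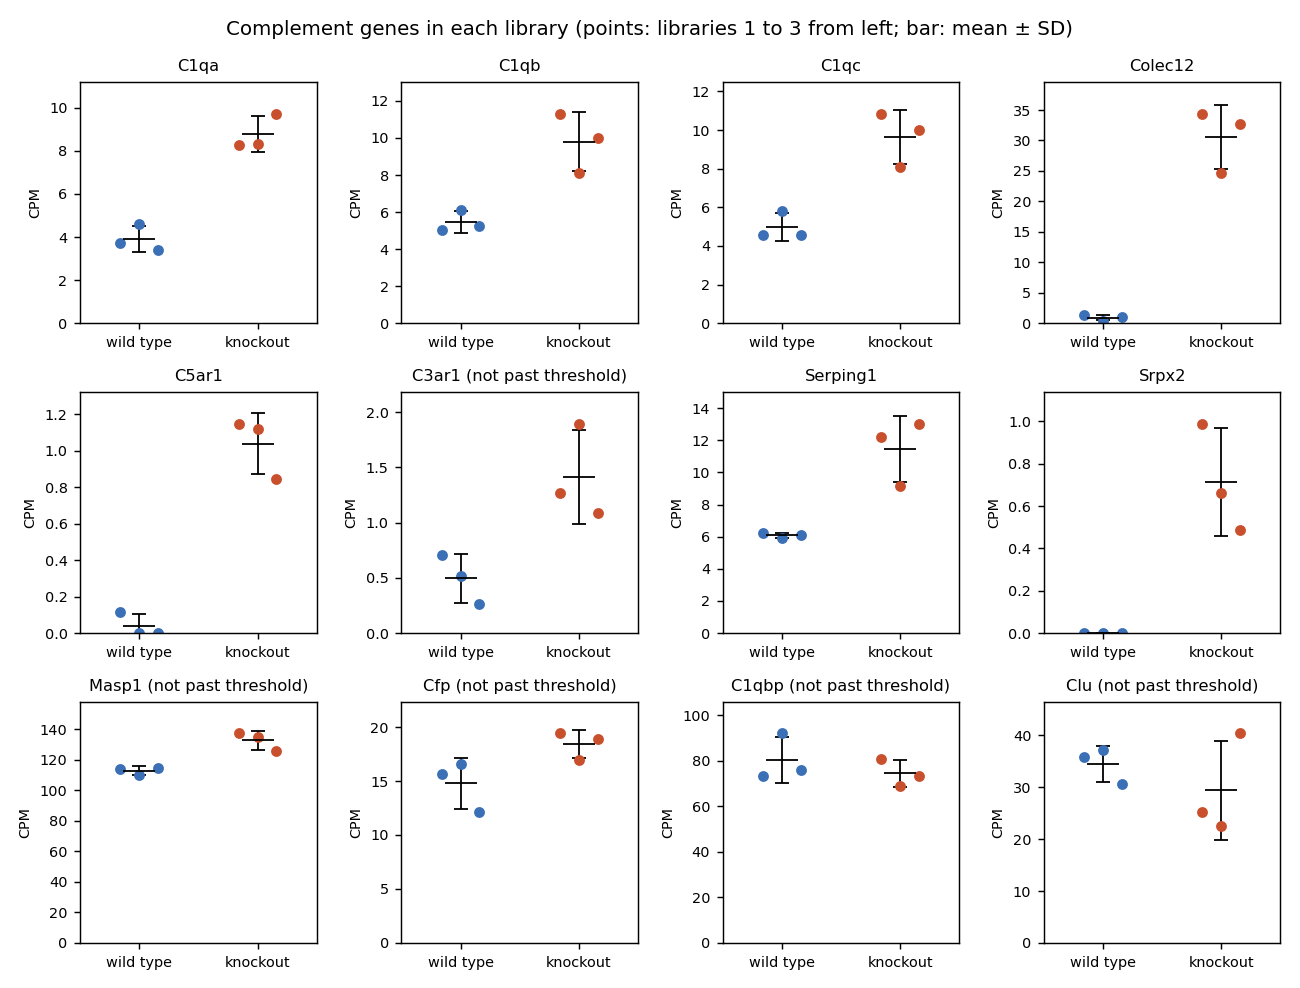
Level in CPM (vertical axes, each starting at 0) of 12 complement genes in each wild-type (blue) and knockout (orange) library; points are libraries 1 to 3 from left to right, and bars show the mean ± SD. The 3 C1q chains, Colec12, C5ar1, Serping1 and Srpx2 are separated between the groups, whereas C1qbp (80.4 and 74.4 CPM on average) and Clu (34.5 and 29.4 CPM) overlap.

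Of the receptors, C5ar1 rose and C3ar1 fell just short of the threshold. C5ar1 encodes the receptor for the anaphylatoxin C5a on myeloid cells. It had 7, 0 and 0 counts in wild type and 79, 71 and 47 in knockout, so every knockout library was well above wild type. In fragments this is a fold of 22.9 with an exact 95% binomial (Clopper-Pearson) interval of 6.00 to 194 for counting error only (adjusted p = 0.0210). The fitted log2 fold change of 4.64 (SE 0.98) is set partly by the prior count of edgeR, and it was 8.98 without wild-type library 1. Leaving out wild-type library 2, or any of the knockout libraries, ended the call (adjusted p up to 0.0768). C5ar2, a second C5a receptor that lies 2588 bases from C5ar1 on chromosome 7, had 0, 0 and 2 counts against 8, 27 and 8 and was not tested. C3ar1, the receptor for C3a, had 42, 30 and 15 counts in wild type and 87, 120 and 60 in knockout. Its groups did not overlap, and the difference fell short of the threshold (1.51, SE 0.43, adjusted p = 0.0669). It passed with DESeq2 (adjusted p = 0.0392), with a filter of 1 CPM in 3 libraries (0.0473) and with counts divided by 4 (0.0441). With that filter and with divided counts, C3ar1 was kept through the knockout libraries alone (1.27, 1.90 and 1.08 CPM against 0.704, 0.517 and 0.262). These 2 settings therefore give no separate support for its rise.

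The integrin chains by which phagocytes bind C3 fragments did not pass. Itgam, the alpha chain of complement receptor type 3, had 21, 21 and 38 counts in wild type and 49, 21 and 48 in the knockout libraries (log2 fold change 0.47, SE 0.53, adjusted p = 0.682). It shares exons with Gm49368 on the same strand, which had 56, 67 and 80 counts against 84, 125 and 99. The shared beta chain gene Itgb2 had 54, 21 and 26 against 68, 25 and 34 (0.22, SE 0.53, adjusted p = 0.862), and both integrin genes overlapped between the groups. Itgax, the alpha chain of the type 4 receptor, had 0, 4 and 0 against 12, 0 and 0 and was not tested. C1qbp was at 73.4, 92.0 and 75.9 CPM against 80.8, 69.1 and 73.5, which also overlap (-0.11, SE 0.10, adjusted p = 0.596).

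Among the soluble regulators, Serping1 and Srpx2 rose. Serping1 encodes the C1 inhibitor, which blocks C1r, C1s and the lectin proteases. It was at 6.22, 5.95 and 6.07 CPM in the wild-type libraries and at 12.2, 9.17 and 13.04 CPM in knockout. The wild-type libraries lay close together, and all knockout libraries were above them (log2 fold change 0.92, SE 0.16, adjusted p = 0.00941). The call was lost without knockout library 3 (adjusted p = 0.0504). Srpx2, a Sushi-domain protein of the extracellular space known to bind C1q and to promote synapse formation, had 0 counts in all wild-type libraries and 68, 42 and 27 in knockout. Against a floor of 3 fragments (12 deposited counts) over the 3 wild-type libraries it was higher by 3.41 on the log2 scale (10.7-fold). This lower bound allows for the wild-type count only and leaves out counting error in the knockout libraries. The edgeR test, which Srpx2 entered through the knockout libraries alone, gave an adjusted p of 0.00553. The lower limit of the exact 95% interval of the fold, for counting error only, was 8.15, below that bound. Srpx2 and Cfp are on the X chromosome, and Xist had 10817, 77043 and 115703 counts in wild type and 3875, 123157 and 634 in knockout; the part of embryo sex in their values was not tested.

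The other soluble regulators did not pass. Clu was at 35.8, 37.2 and 30.6 CPM in the wild-type libraries and at 25.2, 22.6 and 40.4 CPM in those of the knockout, a difference that did not pass (log2 fold change -0.23, SE 0.22, adjusted p = 0.608). Knockout library 3 was the highest of all and the other knockout libraries the lowest, and library 3 was also the one with 25057 counts of Ttr; the part of choroid plexus in the Clu values was not tested. Without knockout library 3, Clu was at -0.53. Cfi, the protease that inactivates C3b and C4b, had 9, 0 and 21 counts against 0, 8 and 0 and was not tested.

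The membrane regulators, which protect cells from their own complement, showed no difference past the threshold (0 of 4 with edgeR, also at an unadjusted p under 0.05). Cr1l, the rodent regulator also known as Crry, was at 26.8, 21.8 and 26.6 CPM in the wild-type libraries and at 25.6, 25.8 and 30.6 CPM in the knockout libraries (log2 fold change 0.12, SE 0.12, adjusted p = 0.619). Cd46, a cofactor for the cleavage of C3b whose gene lies 5132 bases from Cr1l on chromosome 1, was at 11.4, 8.96 and 13.2 CPM against 10.9, 13.5 and 9.58 (0.02, SE 0.18, adjusted p = 0.971). Cd55, which speeds the decay of convertases, was at 2.33, 1.41 and 2.29 CPM against 2.62, 1.72 and 2.40 (0.16, SE 0.28). Cd59a, which blocks the terminal pore, had 37, 65 and 36 counts against 47, 65 and 37 (0.01, SE 0.41). In all 4 genes the groups overlapped. Cd46 and Cd55 share exon sequence with antisense genes, and Cd59a has a related gene, Cd59b, with 3 to 15 counts a library.

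Further complement genes outside the 32 were read from a list of 27, of which 11 could be tested. Of these 11, 3 rose (Vtn, Cd93 and Fcna) and 0 fell, against 5.21% higher and 2.53% lower over all tested genes. DESeq2 and limma-voom also called 0 lower at an adjusted p under 0.05. At an unadjusted p under 0.05 edgeR had 3 higher and 2 lower (Susd4 and Ptx3), again without a share over all genes. Fcna, a ficolin of the lectin pathway made by macrophages, had 7, 14 and 4 counts against 54, 67 and 56 (log2 fold change 2.72, SE 0.56, adjusted p = 0.0193); it overlaps an antisense gene, and leaving out wild-type library 1, or any of the knockout libraries, ended its call (adjusted p up to 0.0778). Vtn, which encodes vitronectin, an inhibitor of the terminal complex that brain pericytes make, went from 15.2 ± 1.63 to 47.7 ± 5.05 CPM (SD, n = 3; log2 fold change 1.65, SE 0.12, adjusted p = 6.03e-05). Cd93, an endothelial and myeloid receptor once described as a C1q receptor, went from 24.6 ± 3.96 to 52.3 ± 12.7 CPM (1.09, SE 0.19, adjusted p = 0.0133), a call lost without wild-type library 2 or 3 (highest adjusted p = 0.069). Susd4, a neuronal Sushi-domain regulator of complement, had 2856, 2526 and 2237 counts against 2409, 2199 and 2074. When scaled, every knockout library of Susd4 lay below wild type, but the difference did not pass (-0.28, SE 0.10, adjusted p = 0.116).

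The summed markers of several cell types were higher in every knockout library than in any wild-type library. Those of other cell types overlapped between the groups. For comparison, 5.21% of all tested genes were called higher. Of 11 genes of all brain macrophages 3 passed, all higher, and their summed level was 30.1 to 34.6 CPM in wild type against 62.6 to 69.9 CPM in knockout. Of 10 microglial markers 5 passed, all higher, with sums of 71.4 to 79.0 CPM and 109.5 to 115 CPM, and none of these markers was at 0. Border macrophages, which live in the meninges and around vessels, had 9 of 10 markers higher, at 11.3 to 15.6 CPM against 105.1 to 138 CPM. Of these, Ms4a7, Cbr2 and Folr2 had 0 counts in wild type. Together with Cd163 they reached the count filter through the knockout libraries alone, so they could only be called higher. Stab1 made up most of that list's wild-type sum (11.7 of 13.5 CPM on average) and rose less (log2 fold change 2.13) than Pf4 (4.83) or F13a1 (5.63). Meningeal fibroblasts had 10 of 10 higher, at 18.0 to 25.6 CPM against 535 to 727 CPM. Endothelium had 7 of 10 higher (182 to 217 CPM against 331 to 425 CPM) and mural cells 6 of 10 (148 to 161 CPM against 254 to 291 CPM). Slco1a4 of the endothelium list also reached the filter through the knockout libraries alone, and the mural list includes Vtn. Choroid plexus had 1 of 7 tested markers higher, at 1.74 to 2.62 CPM against 11.1 to 492 CPM, and Folr1 had 0 counts in wild type. Granulocytes and monocytes summed to under 1 CPM in every library, and Ly6g and Elane had 0 counts in both groups. Cortical neurons had 0 of 10 markers higher and 1 lower (Tubb3, log2 fold change -0.42, adjusted p = 0.0180). Astrocytes had 1 of 10 markers higher, and their sums overlapped, at 358 to 399 CPM in wild type against 351 to 397 CPM in knockout. Erythroid cells had 0 of 7 tested markers higher, and their sums also overlapped (1520 to 2106 CPM against 1886 to 2203 CPM). The hepatocyte list summed to 8.69 to 10.5 CPM in wild type and 21.9 to 476 CPM in knockout, with 1 of 3 tested markers higher (Trf, 9.23 against 20.8 CPM on average, adjusted p = 0.000755) and the widest knockout range in Ttr, which is also on the choroid plexus list. Of its other markers, Ahsg, Fgb, Serpina1a and Ambp were at 0 in all libraries. The part of these cells in the rise of the complement genes was not tested.

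**Figure D4:**
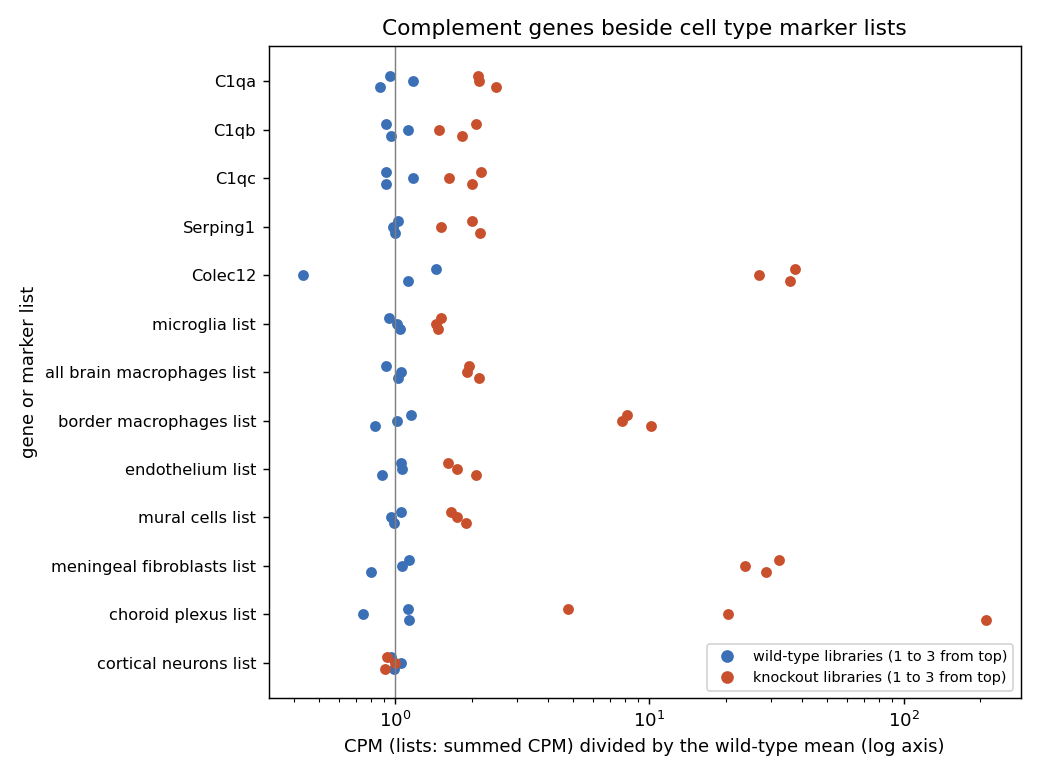
Level of 5 complement genes and summed level of 8 marker lists in each library, divided by the wild-type mean (horizontal, log axis); blue points are wild-type and orange points knockout libraries, 1 to 3 from top to bottom. The knockout points of C1qa, C1qb, C1qc and Serping1 lie near those of the lists of all brain macrophages, endothelium and mural cells, and those of Colec12 near the meningeal fibroblast list.

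The levels of 7 complement genes known from macrophages were also set against the summed level of the macrophage markers in the same library. Relative to the list of all brain macrophages, C1qa was higher in knockout by 0.17, C1qb was at -0.16 and C1qc at -0.05 on the log2 scale, and the groups overlapped for each (exact two-sided permutation test, p = 0.2, 0.3 and 0.8). With 3 libraries a group the smallest p this test can give is 0.1, so no difference could pass, and over the 7 genes the adjusted p was 0.525 or more. C3ar1 was at 0.59, Itgam at -0.57 and Itgb2 at -0.77, with wild-type SDs of 0.80, 0.49 and 0.79. Cfp was at -0.67, with every knockout library below wild type (exact permutation p = 0.1). The direction differed between marker lists. Against the microglial list C1qa was at 0.61, C1qb at 0.27 and C1qc at 0.39, and against the border macrophage list, whose wild-type sum is mostly Stab1, all 7 genes lay below wild type, between -2.89 (Itgb2) and -1.54 (C3ar1). For C1qb and C1qc the groups also overlapped against the microglial list, and against the border macrophage list no gene's groups overlapped (exact permutation p = 0.1 for each). The border macrophage sum itself rose 8.71-fold, from 13.5 to 118 CPM on average, against at most 2.85-fold for the 7 genes (C3ar1). The separation thus restates the rise of that list and gives no further information on the complement genes.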

How the data were processed

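Gene expression was measured by RNA sequencing in 3 libraries of each genotype, wild type and Csmd3 knockout. The deposited table holds raw counts per gene, all whole numbers. These deposited values were treated as estimated counts, since low values pile up at 4 and 8 (in wild-type library 1, 1298 genes at 4 against 492 at 3), and needed no rounding. Per the submitters' processing notes, HISAT2 2.0.5, StringTie 1.3.4, Trim Galore 0.4.4, FastQC 0.11.9 and the build mm10 were used; which program counted reads, with which annotation and strand setting, was not stated in those notes or the labels. Of 55401 rows, 55141 received a name from GENCODE M21, and unnamed rows took no more than 0.0238% of counts.

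Genes were kept by filterByExpr (about 0.167 CPM in 3 libraries), then scaled (TMM) and tested with edgeR 4.0.16 in R 4.3.3 (quasi-likelihood, robust), with Benjamini-Hochberg adjustment over all 19844 tested genes and a threshold of 0.05; every adjusted p of a gene comes from it unless another tool is named. Log2 fold changes are knockout minus wild type, and SE is the absolute fold change over the square root of F. CPM uses TMM-scaled totals, and CPM per kb divides by the union of exons. The fit was tested on simulated data. As alternatives, DESeq2 1.42.0, limma-voom (limma 3.58.1), scaling by RLE or upper quartile, other filters, a fit that was not robust, a replicate block, counts divided by 4, and the omission of libraries were tried. The 32 genes and all lists were chosen with earlier results of these data known. Full values were given for genes past the threshold, the most abundant gene of each group and the C1q chains, with counts or levels for the rest; from the list of further complement genes those past the threshold were named (1 gene of it is not reported here and not counted), and Susd4, Ptx3 and the gene copies were added after their values were seen. Nothing in the labels says that libraries came from separate litters, so p-values measure the spread between these libraries only. Intervals and floors cover counting error only.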

Additional observations from a re-analysis of the deposited data

How the results depend on the processing

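The number of complement genes that rose was 7, and it was 6 to 8 under the changes of scaling, test, filter, robustness, block or count scale that were run. Of the original 7, 5 remained with a filter of 1 CPM in 3 libraries, where C5ar1 and Srpx2 were not tested, 6 with counts divided by 4, where Srpx2 was not tested, and 6 with the block; C3ar1 was gained with that filter, with counts divided by 4 and with DESeq2. With 1 library left out it ran from 3 to 7 (3 without knockout library 3, 4 without knockout library 1), and without knockout libraries 2 and 3 together it was 1; that fit assumes that the lone knockout library varied like the others. None fell under any of these settings. With the filter of 1 CPM and with divided counts, C3ar1 was kept through the knockout libraries alone. Of the further complement genes, 2 rose with any 1 library left out and 0 to 2 fell (Cr2 and Susd4 fell without wild-type library 3), and 1 rose without knockout libraries 2 and 3. Over all genes, 1033 rose and 503 fell. These were 472 to 1402 and 137 to 956 with 1 library left out, 262 and 43 without knockout libraries 2 and 3, and DESeq2 gave 792 lower genes.

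With the replicate number as a block, 686 genes rose and 255 fell, 6 complement genes rose (C1qb at adjusted p = 0.0587) and Fcna was lost (0.0501). Same-numbered libraries deviated together with correlations of only -0.00263 to 0.0283 across genes, and differently numbered ones with -0.0310 to 0.0287. The numbers thus showed no pairing here, but correlations over all genes cannot exclude one, and the labels do not say. Leaving out libraries changed the sign for C1qc relative to all brain macrophage markers, which ran from -0.15 to 0.04 (0.041 without knockout library 2 and 0.029 without wild-type library 2). Other marker lists as the base reversed C1qa (-1.95) and C3ar1 (-1.54) with border macrophages, and C1qb (0.27) and C1qc (0.39) with microglia. The border macrophage list itself rose more than C1qa and C3ar1, and why the lists rose to unlike extents was not tested. Genes under about 40 deposited counts a library rest on fewer than 10 fragments.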
